A study of Rattus norvegicus with 4 samples.

Results

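On a nylon cDNA array, 10 of 1185 spots stand for a set of fat cell genes, most of which serve to make, take up, store or release lipid. Carbonic anhydrase III and leptin belong to the set, called the 10 lipid genes below, but no step of lipid handling is assigned to them here. The 10 spots were taken by array code for FAS, ACC, LPL, HSL, FATP1 and aquaporin 7, and by gene name for perilipin, CD36, carbonic anhydrase III and leptin, where the leptin receptor was left out. The arrays were hybridized with mesenteric white adipose tissue RNA of female Wistar rats of 220 to 230 g, fed chow without restriction, whose age is not given in the sources used here. The 2 OE-treated rats had received oleoyl-estrone (OE, the oleic acid ester of the oestrogen estrone) by stomach tube at 10 μmol/kg per day for 2 days in 0.2 ml of sunflower oil. The 2 control rats had received the oil alone, so that the oil and the gavage are shared by both groups. Food intake was not shared: the study reports that OE-treated rats ate less than controls and had a lower body weight relative to the start. Whether the rats of these arrays were among those measured is not stated. The part of lower food intake in the values below was not tested. Tissue was taken 48 h after the first dose, and the arrays are control 1 and control 2, OE 1 and OE 2, taken as 1 rat each because the study's methods give 2 animals per condition. The RNA came from whole tissue, in which fewer fat cells and less RNA per fat cell cannot be told apart.

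White fat cells store fatty acids as triacylglycerol in a single large droplet. The fatty acids come from the blood, where LPL frees them from lipoproteins and CD36 and FATP1 help them across the membrane, or are made in the cell from acetyl-CoA by ACC and FAS. Perilipin coats the droplet and controls the access of lipases to it. HSL hydrolyses the stored lipid, and the glycerol leaves through aquaporin 7, a channel for water and glycerol.

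The adjusted intensity is the spot minus the background. Divided by the median spot of the array it gives the level in array medians, so that 1 array median is the level of a typical spot. Detected means that the adjusted intensity reached 2 times the background or more. Pairs of values below are in the order 1, 2 of each group. None of the 10 genes was detected on control 1, 7 were on control 2, 5 on OE 1 and 2 on OE 2, and 3 (FATP1, aquaporin 7 and leptin) were detected on no array. The floor for low values, 0.235 array medians, was passed on all 4 arrays by 9 members, which entered the comparison of 922 genes. Leptin did not. The spots next to each of the 9 genes by array code reached at most 128 in adjusted intensity, and those next to leptin 293. On OE 1 and OE 2 the highest neighbour exceeded the gene itself for ACC (124 and 74 against 37 and 28). It did so too for aquaporin 7 (10 and 14 against 6 and 9), and on control 1 for ACC (36 against 34). Elsewhere the neighbours of the 9 genes were lower than the gene. Spread of signal between spots was not tested.

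Markers of other cell types differed between the arrays. The 10 leukocyte markers summed to 269.5 and 29.6 array medians on the controls against 298 and 148 on the OE arrays, and 9 of the 10 were lowest on control 2, where CD3 zeta, CD8 and CD28 were at 0. CD45, the pan-leukocyte antigen, measured 2038 and 71 on the controls against 3180 and 1319 on the OE arrays in adjusted intensity. Between the controls the sum over the 10 lipid genes ran the other way, with 28.2 and 281 array medians. On the OE arrays it was 73.8 and 59.3, higher on OE 1 as for the leukocyte markers. Both markers of the mesothelium that covers mesenteric fat, WT1 and retinaldehyde dehydrogenase, were detected on control 2 alone, and summed there to 49.2 array medians against 3.50 to 5.95 on the other arrays. Intestinal markers summed to 273 array medians on OE 2 against 1.44 to 3.14 elsewhere, and none of the 7 pancreatic markers was detected on any array. The part of these cells in the values that follow was not tested.

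**Figure D1:**
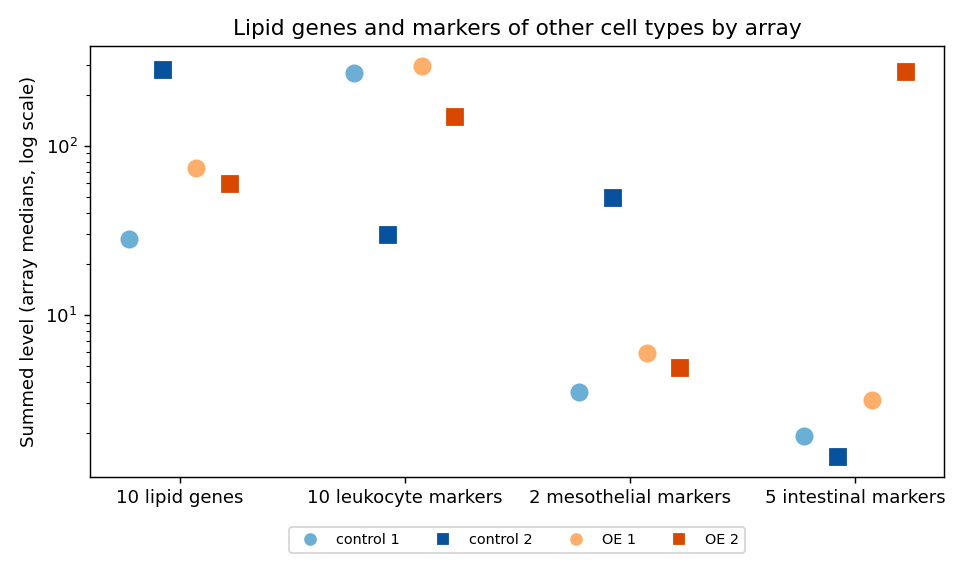
Summed level in array medians (log axis) of the 10 lipid genes and of 10 leukocyte, 2 mesothelial and 5 intestinal markers, 1 point per array. Control 2 is the highest array for the lipid genes (281) and the lowest for the leukocyte markers (29.6), and OE 2 alone is high for the intestinal markers (273).

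The genes of fatty acid synthesis, FAS and ACC, had lower levels on both OE arrays than on both controls after scaling to array medians. FAS, the enzyme that builds palmitate from malonyl-CoA, measured 60 and 182 on the controls against 39 and 15 on the OE arrays in adjusted intensity, or 4.29 and 20.2 against 1.77 and 0.882 array medians. Both OE values lay below both controls, and the OE 2 value was in the 48.7th percentile of its array, that is among its typical spots. It averaged 12.3 ± 11.3 array medians over the controls and 1.33 ± 0.630 over the OE arrays (mean ± SD, n = 2 each), with a ratio of 0.108. FAS was detected on control 2 only. Its other 3 values were not well above background, so that the size of the ratio rests on dim spots. Its adjusted p was 0.957 with limma, and its unadjusted p of 0.0297 was the only one under 0.05 among the 9 genes.

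ACC, which makes the malonyl-CoA that FAS uses, measured 34 and 138 on the controls against 37 and 28 on the OE arrays in adjusted intensity. After scaling these were 2.43 and 15.3 against 1.68 and 1.65 array medians, so that the OE arrays were nearly alike and below both controls, whereas unscaled OE 1 was above control 1. The distance from control 1 to OE 1 was small beside that between the 2 controls. It averaged 8.88 ± 9.13 array medians over the controls and 1.66 ± 0.0246 over the OE arrays (mean ± SD, n = 2 each), with a ratio of 0.187. Over control 1 alone the ratio was 0.685 for ACC and 0.310 for FAS. ACC too was detected on control 2 only, so that the nearly alike OE values were both below the detection limit. The fold of control over OE was also taken with the OE values raised to the lowest detected level of their arrays. It was then 0.959 for ACC, which does not establish a decrease, and 1.46 for FAS (means of log2 values, control values as measured). Neither is a strict lower bound, since control 1 was itself below the detection limit for both genes.

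**Figure D2:**
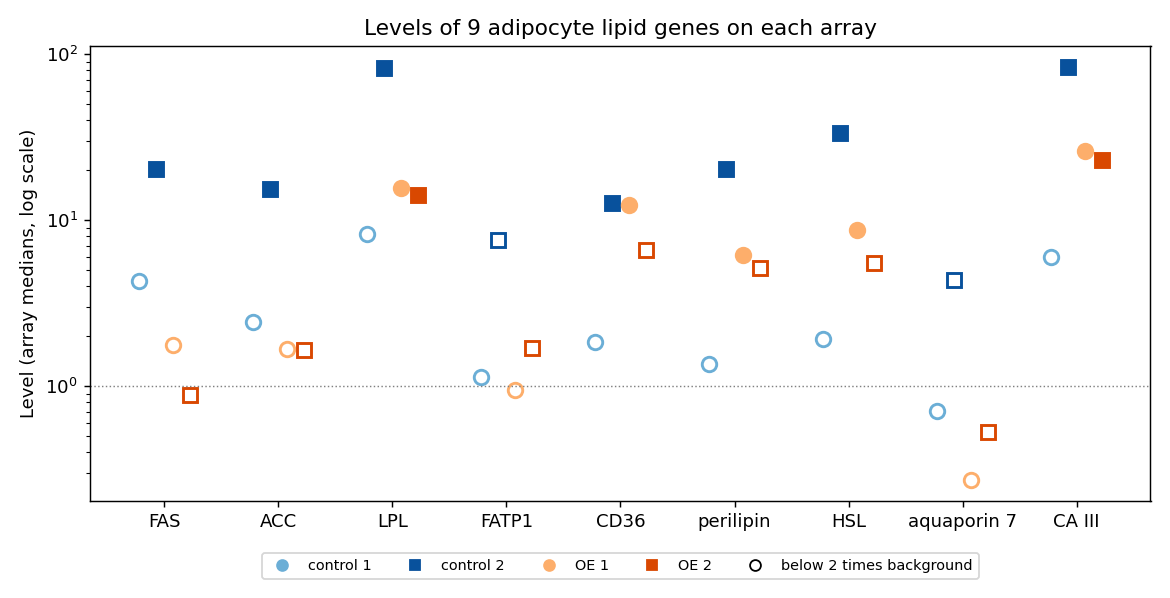
Level of each tested gene in array medians (log axis), 1 point per array, with open points below 2 times the background and a dotted line at 1 array median. All 9 genes are highest on control 2, and for LPL, CD36, perilipin, HSL and CA III control 1 lies below both OE arrays.

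Of the genes of fatty acid uptake, LPL was measured on 3 arrays above the limit. In adjusted intensity LPL measured 115 and 746 on the controls against 342 and 242 on the OE arrays, or 8.21 and 82.9 against 15.5 and 14.2 array medians. The OE arrays lay between the controls, and differed from each other by 1.09-fold where the controls differed by 10.1-fold. The ratio of OE to the control mean was 0.327, and over control 1 alone it was 1.81. The log2 fold change was -0.81 with a 95% interval from -3.89 to 2.27 (limma).

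FATP1, a fatty acid transporter with acyl-CoA synthetase activity, measured 16 and 68 on the controls against 21 and 29 on the OE arrays in adjusted intensity. Control 2 was the only high array, and the groups overlapped after scaling, at 1.14 and 7.56 against 0.955 and 1.71 array medians. Its ratio of 0.306 was thus one between values below the detection limit, and was 1.16 over control 1 alone.

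CD36, the fatty acid translocase, was the 1 tested member with a higher mean on the OE arrays. It measured 26 and 114 on the controls against 270 and 112 on the OE arrays in adjusted intensity, and was detected on control 2 and OE 1. In array medians these were 1.86 and 12.7 against 12.3 and 6.59, so that control 2 and OE 1 were alike and control 1 was low. It averaged 7.26 ± 7.64 array medians over the controls and 9.43 ± 4.02 over the OE arrays (mean ± SD, n = 2 each), with a ratio of 1.30 with a log2 fold change of 0.89 (95% interval from -1.89 to 3.67, limma). Without OE 2 the ratio was 1.69, and without OE 1 it was 0.907.

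CD36, perilipin and FATP1 were among 4 members, with leptin, that matched a promoter entry of RefSeq (build GRCr8) by gene symbol. These promoters are shown because the 3 genes differed in their course over the arrays, CD36 and perilipin lying higher on both OE arrays than on control 1 and FATP1 near it. The control 1 values of all 3 were below the detection limit, as was FATP1 on every array. A link between the matches below and this course was not tested. Each line gives the 250 bases before the transcription start, 5′ to 3′ on the strand of the gene, at chr4:18246332-18246581 (plus strand) for CD36, chr1:143086149-143086398 (minus strand) for perilipin and chr16:18312717-18312966 (plus strand) for FATP1. Capitals mark a match, on either strand, to the TATA box TATAAA, the CCAAT box CCAAT, the E-box CACGTG or the half-site AGGTCA of the PPARγ and RXR pair.
CD36: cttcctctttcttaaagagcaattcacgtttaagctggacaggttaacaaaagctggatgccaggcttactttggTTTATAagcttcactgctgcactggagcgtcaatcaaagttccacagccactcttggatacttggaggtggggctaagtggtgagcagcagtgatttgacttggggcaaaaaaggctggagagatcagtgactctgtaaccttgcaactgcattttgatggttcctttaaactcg
Perilipin: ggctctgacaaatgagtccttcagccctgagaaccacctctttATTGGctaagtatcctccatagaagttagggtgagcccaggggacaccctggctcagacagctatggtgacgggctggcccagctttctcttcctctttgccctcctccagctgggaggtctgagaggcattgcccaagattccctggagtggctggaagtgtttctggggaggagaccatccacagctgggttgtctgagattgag
FATP1: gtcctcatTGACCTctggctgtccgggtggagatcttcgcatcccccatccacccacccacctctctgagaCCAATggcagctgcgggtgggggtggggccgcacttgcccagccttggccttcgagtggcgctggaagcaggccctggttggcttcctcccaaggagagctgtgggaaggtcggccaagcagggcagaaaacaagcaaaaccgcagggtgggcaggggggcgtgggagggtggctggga

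The half-site AGGTCA was found in FATP1 only, 242 to 237 bases before the start, and 13.7% of the 27457 rat promoters of the same length hold it. The CCAAT box was found in FATP1, perilipin and leptin (34.3% of promoters), and the TATA box letters in CD36 alone (13.1%), in the reverse direction and 175 to 170 bases before the start. The E-box was found in none of the 4 and in 5.79% of promoters. These are matches of letters, and no binding was measured here.

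The genes of the droplet differed among themselves. Perilipin measured 19 and 182 on the controls against 136 and 87 on the OE arrays in adjusted intensity, or 1.36 and 20.2 against 6.18 and 5.12 array medians. The OE arrays were close to each other and lay between the controls, which differed by 14.9-fold. Its ratio was 0.524, just above the limit of 0.5 that the study's methods use for a lower gene, whereas the log2 fold change, which takes the mean of log values, was 0.10 with a standard error of 1.36. The means and the mean of logs thus differed in sign, as they did for carbonic anhydrase III.

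HSL measured 27 and 300 on the controls against 191 and 94 on the OE arrays in adjusted intensity, or 1.93 and 33.3 against 8.68 and 5.53 array medians, and was detected on control 2 and OE 1. It had the widest distance between the controls of the 9 genes, 17.3-fold, and both OE arrays lay between them. The ratio was 0.403 over the mean of both controls, 3.68 over control 1 and 0.213 over control 2.

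Aquaporin 7 measured 10 and 39 on the controls against 6 and 9 on the OE arrays in adjusted intensity, below the detection limit on every array. Scaled, the values were 0.714 and 4.33 against 0.273 and 0.529 array medians, with both OE arrays below both controls and 3 of the 4 values under that of a typical spot. Its ratio of 0.159 became 0.561 over control 1 alone.

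Carbonic anhydrase III (CA III), an abundant cytosolic enzyme of fat and muscle cells, measured 84 and 756 on the controls against 570 and 390 on the OE arrays in adjusted intensity. In array medians these were 6 and 84.0 against 25.9 and 22.9. Again the OE arrays were close to each other and lay between controls that differed by 14.0-fold. The ratio was 0.543 over both controls and 4.07 over control 1 alone. Leptin, the hormone that fat cells release in proportion to their lipid, measured 4 and 0 on the controls against 11 and 2 on the OE arrays. These values lay between percentiles 8.35 and 31.1 of the spots of their arrays, not well above background, and no ratio is given.

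A ratio under 0.5 was found for 6 of the 9 tested members (FAS, ACC, LPL, FATP1, HSL and aquaporin 7), where 18.3% of the 922 genes did, and 0 had a ratio over 1.5, where 18.9% did. The median log2 ratio was -1.61 over the 9 genes and -0.16 over all genes tested. Both OE arrays lay below both controls for 3 of the 9 (FAS, ACC and aquaporin 7), where 15.8% of all genes did, and above both for 0, where 14.1% did. The other 6 overlapped. No gene of the 9 passed an adjusted p of 0.05 in limma, and 0% of the 922 genes did. At an unadjusted p under 0.05 limma gave 1 of the 9 and 2.06% of all genes. The log2 fold changes ran from -2.90 to 0.89, with standard errors from 0.96 to 1.43, and 8 of the 9 intervals of 95% held 0. With 2 arrays against 2, an exact permutation test cannot give a two-sided p under 0.333, so none was run.

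The count of 6 rested on control 2. In array medians all 9 genes were highest on that array, where 45.3% of all genes tested were. For CD36 the margin was small (12.7 against 12.3 on OE 1), and in adjusted intensity OE 1 was higher (270 against 114). All 9 were at least 2-fold higher on control 2 than on control 1 after scaling, where 37.6% of all genes were. The fold between the controls ran from 4.72 for FAS to 17.3 for HSL, with a median of 6.82 against 1.27 over all genes. The OE arrays differed less, from 0.515 (OE 1 over OE 2) for aquaporin 7 to 2.0 for FAS. Over control 2 alone, 8 of the 9 lay under 0.5, where 28.7% of all genes did, and CD36 had 0.745. Over control 1 alone 1 gene, FAS, had a ratio under 0.5 and 5 (LPL, CD36, perilipin, HSL and CA III) had a ratio over 1.5, where 8.79% and 32.4% of all genes did. FAS was under 0.5 over either control, but its values on control 1 and on both OE arrays, from which the 0.310 comes, were not well above background.

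**Figure D3:**
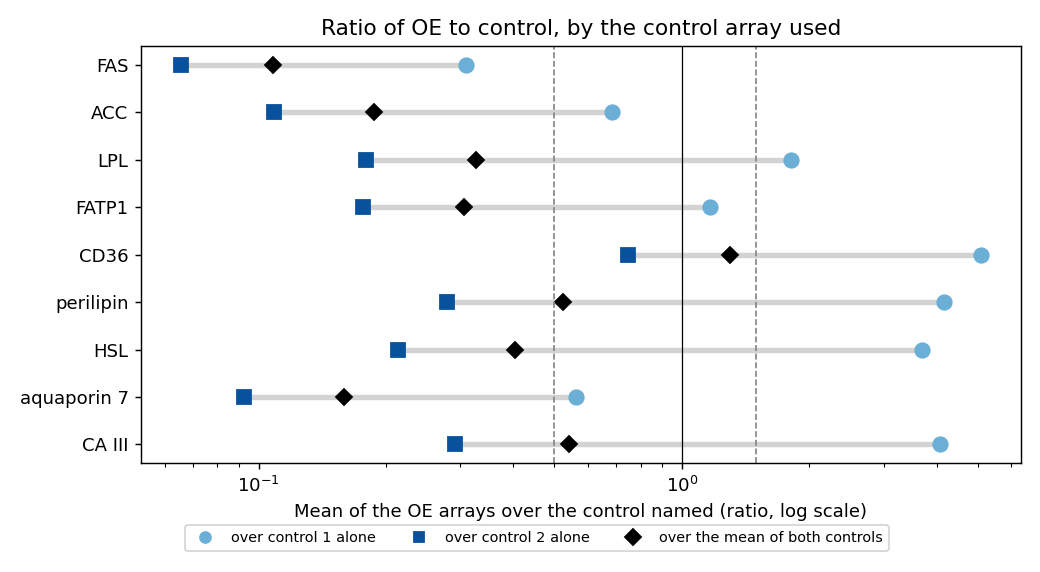
Mean of the OE arrays over control 1 alone, over control 2 alone and over the mean of both (log axis), with dashed lines at 0.5 and 1.5 and a solid line at 1. FAS stays under 0.5 throughout (0.0656 to 0.310), and LPL, HSL, perilipin and CA III pass from under 0.5 to over 1.5 between the controls.

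Ratios of spots within an array need no scaling between arrays. Relative to FABP4 the genes of synthesis lay lower on both OE arrays, LPL was level, and CD36, perilipin and CA III lay higher. FABP4, the abundant fatty acid carrier of fat cell cytosol, was detected on all arrays, with 3532 and 19033 on the controls against 8811 and 8512 on the OE arrays in adjusted intensity. Each percentage below is compared only between arrays, since 2 spots do not give comparable levels, and it shows unequal change rather than which of the genes changed.

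FAS was 1.70% and 0.956% of FABP4 on the controls against 0.443% and 0.176% on the OE arrays. The controls were closer together here than in array medians, and both OE arrays lay below them, with a difference of -2.19 on the log2 scale between the group means. ACC was 0.963% and 0.725% against 0.420% and 0.329%, with a difference of -1.17. Aquaporin 7 was 0.283% and 0.205% against 0.0681% and 0.106%, a difference of -1.51. FATP1 was also lower on both OE arrays, but OE 2 at 0.341% was next to control 2 at 0.357%, and against LPL it overlapped.

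LPL kept nearly the same proportion to FABP4, with 3.26% and 3.92% on the controls against 3.88% and 2.84% on the OE arrays. The highest of these was 1.38 times the lowest, and the groups overlapped. HSL was 0.764% and 1.58% against 2.17% and 1.10%, so that its controls enclosed OE 2.

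Higher relative to FABP4 on both OE arrays were 3 genes. CD36 was 0.736% and 0.599% of FABP4 on the controls against 3.06% and 1.32% on the OE arrays, a difference of 1.6 on the log2 scale. CA III was 2.38% and 3.97% against 6.47% and 4.58%, a difference of 0.82. Perilipin was 0.538% and 0.956% against 1.54% and 1.02%, a difference of 0.81 in which OE 2 and control 2 were near each other. In all, relative to FABP4, 4 of the 9 genes had both OE arrays below both controls, where 3.85% of the 961 genes that passed the same filter did, and 3 had both above, where 16.3% did. With the arrays scaled to FABP4, 3 of the 9 had a ratio under 0.5, where 8.53% of the 961 did, and 3 a ratio over 1.5, where 27.5% did. In array medians FABP4 was itself 8.38-fold higher on control 2 than on control 1, where the median over all genes was 1.27. A gene without such a rise falls low relative to FABP4 on control 2, where both OE arrays seldom lie below it. All 9 genes were higher on control 2 too, so that the distance from the shares of 3.85% and 8.53% in part restates that rise. Taken relative to LPL in place of FABP4, the 3 genes FAS, ACC and aquaporin 7 were again below and CD36, perilipin and CA III above, and FATP1 and HSL overlapped. The OE values of FAS, ACC and aquaporin 7 were all below the detection limit. So were all values of FATP1, the control 1 values of CD36, perilipin and CA III, and the OE 2 values of CD36 and perilipin. The smallest two-sided p of 0.333 that an exact test allows holds here too.

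**Figure D4:**
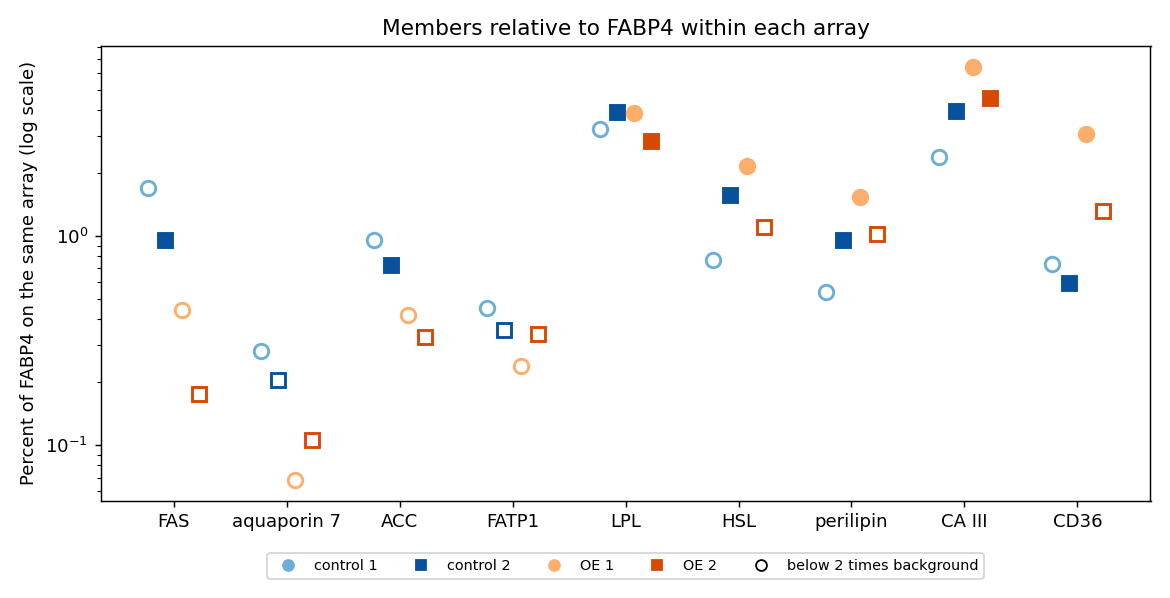
Adjusted intensity of each tested gene as a percentage of FABP4 on the same array (log axis), ordered from the lowest to the highest log2 difference between the groups, with open points below 2 times the background. FAS, aquaporin 7, ACC and FATP1 are lower on both OE arrays, LPL is level (2.84% to 3.92%), and perilipin, CA III and CD36 are higher on both.

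The array held 35 further genes whose names match a list for the supply, activation, uptake, hydrolysis and hormonal control of lipid. The names also take in genes of other tissues, among them colipase, a renal glucose transporter and 5 genes that are intestinal or pancreatic markers here. The filter left 25, of which 8 had a ratio under 0.5, 5 a ratio over 1.5 and 12 neither, and their median log2 ratio was -0.81, beside 18.3%, 18.9% and -0.16 over all genes tested. Without the 5 markers, a choice made after seeing the data, 23 were tested, of which 8 lay under 0.5 and 3 over 1.5. None passed limma's adjusted p of 0.05, and 0 had an unadjusted p under 0.05. Long chain acyl-CoA synthetase 2, which activates fatty acids for esterification or oxidation, measured 40 and 801 on the controls against 618 and 189 on the OE arrays in adjusted intensity. The OE arrays lay between the controls as for LPL, and its ratio was 0.427. The type II-beta regulatory chain of protein kinase A, the cAMP-activated kinase that switches on HSL, measured 32 and 296 against 194 and 96 and had a ratio of 0.411. Mitochondrial HMG-CoA synthase, the ketone body enzyme, measured 22 and 632 against 158 and 79 and had a ratio of 0.165, with 3.76 over control 1 alone. In array medians these 3 genes had the same order of the arrays as HSL, perilipin and CA III.

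The insulin receptor precursor, below the detection limit on all arrays, measured 37 and 40 on the controls against 33 and 15 on the OE arrays, with a ratio of 0.336. After scaling both OE arrays lay below both controls, and the ratio was 0.451 over control 1 and 0.268 over control 2. The LDL receptor, also below the limit, measured 18 and 31 against 24 and 10, with a ratio of 0.355. The catalytic subunit of protein kinase A measured 7 and 0 against 18 and 15, with a ratio of 2.31 that rested on the floor for control 2. Epidermal FABP, a fatty acid carrier detected on all arrays, measured from 177 to 419 and had a ratio of 0.510, and FABP4 had a ratio of 0.381. Intestinal and liver FABP were detected on OE 2 alone, the array with the intestinal markers, and had ratios of 65.6 and 66.5 that came from it.

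Among 95 other genes detected on all 4 arrays, those whose course over the arrays came nearest to the mean of LPL, CD36, perilipin, HSL and CA III were ranked by root mean square distance of centred log2 values over the 4 arrays. The members of this profile were those detected on at least 2 arrays, since none was detected on all. Cytochrome oxidase subunit I was nearest, at 0.27, followed by microsomal glutathione S-transferase at 0.30, cytochrome c oxidase subunits Vb and VIa at 0.45, the gastric inhibitory polypeptide precursor at 0.48 and FABP4 at 0.48, where the median of the 95 was 1.16. Cytochrome oxidase subunit I measured 986 and 5008 on the controls against 5634 and 2377 on the OE arrays in adjusted intensity. Each of the 5 was over 6-fold higher on control 2 than on control 1 after scaling, from 6.84 to 11.7. The choice by profile largely fixes this, and it is no separate result. The genes that made the profile were themselves 6.82-fold (CD36) to 17.3-fold (HSL) higher on control 2.

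The processing moved the genes unequally. FAS stayed under 0.5 in all 15 alternatives of scaling, floor, filter and background, from 0.0740 to 0.410. HSL passed from 0.403 to 1.40 when the arrays were scaled to FABP4, and CD36 was over 1.5 in 9 of the 15.

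**Figure D5:**
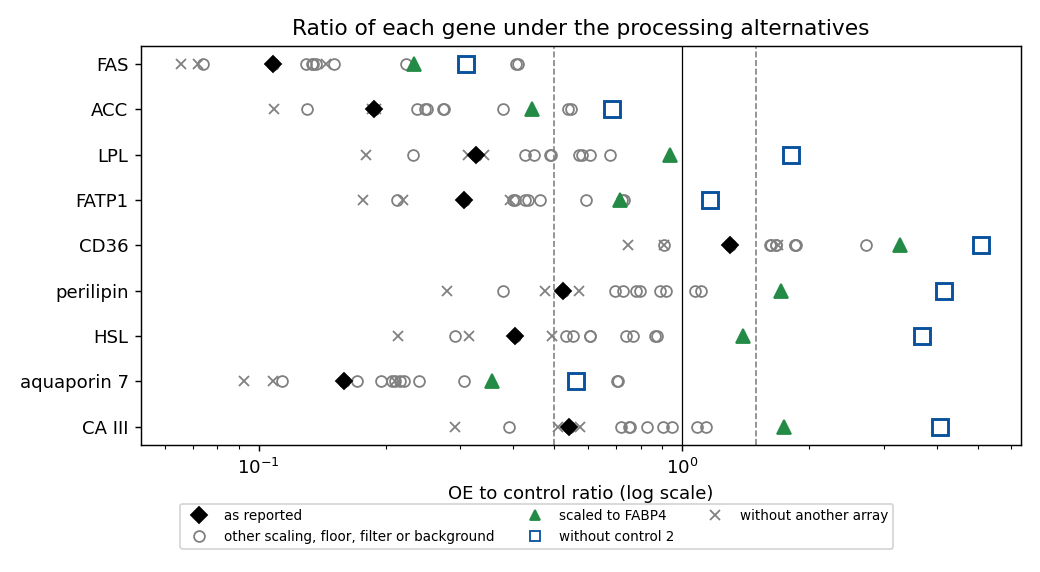
OE to control ratio of each tested gene (log axis) as reported and under each alternative, with dashed lines at 0.5 and 1.5. FAS, ACC and aquaporin 7 stay under 1 at every point, and leaving out control 2 raises every gene, up to 5.08 for CD36.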

How the data were processed

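Radiolabelled cDNA of mesenteric fat was hybridized to nylon arrays, 2 per group. That each array is 1 rat is inferred from the 2 animals per condition of the study's methods, and the labels do not state it. The files deposited hold intensity from image analysis, unscaled (spot, background, and adjusted intensity, set to 0 if negative). The second array's columns in each file repeat another deposited array. The series table of adjusted intensity, tied to 933 of 1185 array codes by its values, was an alternative. Of the tied rows 239 held another OE 1 value than the array's own. None of these was a member, so that for the members this alternative is no independent check.

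Groups came from the labels. Each adjusted intensity was divided by its array's 50th percentile (14, 9, 22 and 17), as the methods describe, and raised to a floor at the 10th percentile of positive scaled values (0.235). Genes above the floor on both arrays of a group were tested (922). Ratios were read against 0.5 and 1.5. The study's control strength filter was not repeated. Log2 values were compared with limma 3.58.1 (R 4.3.3; lmFit, eBayes, Benjamini-Hochberg over all genes tested), tested on simulated data. The number of arrays limits the precision. The members and lists were chosen with earlier results of these data known. Named were all members, FABP4, listed genes detected on any array or past a limit without overlap, and the 5 nearest profiles. Genes named outside this rule are cell type markers. Gene names are those of the array files. Promoters came from RefSeq.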

Additional observations from a re-analysis of the deposited data

How the results depend on the processing

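Limma called 0 of the 9 genes in every alternative run, while 0 to 8 had an unadjusted p under 0.05, and a smallest adjusted p of 0.188 (without control 1) to 0.999. With a replicate block the count was also 0, while an unadjusted p under 0.05 was reached by 2. The correlation of the deviations of same-numbered arrays across genes was 0.0495. The labels do not say whether the numbers pair the rats, and with 2 arrays per group this value cannot decide it. Against 6 genes under 0.5, 0 over 1.5 and a median log2 ratio of -1.61, scaling to FABP4 gave 3 genes, 3 genes and a median of -0.094, and a ratio of 1.40 for HSL. FABP4 itself was 8.38-fold higher on control 2 than on control 1. Without scaling 3 genes were under 0.5 and 1 over 1.5. Without background subtraction, and with normexp, 1 was under 0.5 and 1 over 1.5, with leptin among the 10 genes then tested. The count over 1.5 was also 1, CD36, with scaling to the 75th percentile, to the total intensity or to the genes detected on all 4 arrays, with quantile normalization and with geometric means. With the floor at the 1st percentile it was 1 of 10 genes tested, leptin then included. CD36 stayed at 1.30 there, and the gene over 1.5 was leptin, which was detected on no array. Leaving out 1 array at a time gave 1 to 8 genes under 0.5, 0 to 5 over 1.5 and a median log2 ratio from -2.48 to 0.86, with the ends at control 1 and control 2. Without control 2 the ratios of LPL, FATP1 and HSL passed 1, and over the arrays left out they ran from 0.180 to 1.81, 0.176 to 1.16 and 0.213 to 3.68. The spread of the lone array was taken from the other group. Signal over background limits FAS and ACC, detected on 1 array each, and FATP1, aquaporin 7 and leptin, detected on none.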
